A study of Caenorhabditis elegans with 66 samples.

Results

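Small nuclear RNA (snRNA) genes encode the short RNAs of the spliceosome and related particles. Of 129 Caenorhabditis elegans genes annotated as snRNA on WBcel235, 88 were kept here, out of 46926 annotated genes, after leaving out those whose symbols begin with sls- (spliced leader RNA), smy- (SmY RNA) or mir-. SNAPc, the complex that activates snRNA transcription, binds a proximal sequence element upstream of such genes and recruits RNA polymerase II to most of them and RNA polymerase III to the U6 type. SNPC-4 is the worm relative of the DNA-contacting human subunit SNAPC4. SNPC-1.3, SNPC-1.1 and SNPC-1.2 are worm relatives of the subunit SNAPC1, and in the worm germline SNPC-4 is also known for transcription of piRNA genes. The annotation gives only the class and, for most genes, a systematic name, so no U-type was assigned. Exceptions by name are sup-6 and sup-39, known from suppressor mutations in worm U1-type snRNA genes.

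Chromatin immunoprecipitation with sequencing (ChIP-seq) was compared in 33 IP libraries, 3 per group, each with 1 peak list called against its own input. SNPC-1.1 (genotype snpc-1.1::3xflag) was profiled in germline nuclei of 56 h young adults, beside untagged N2 worms prepared from the same material. SNPC-1.2 was profiled in whole 72 h gravid adults in a strain that carries snpc-1.2::3xflag with snpc-4::aid and the transgene Psun-1::tir1 (the SNPC-4 AID strain, whose TIR1 is driven by the germline promoter of sun-1), in snpc-1.2::3xflag worms and in N2. The labels do not say whether auxin, which triggers degradation of an AID-tagged protein, was given. SNPC-4 was profiled in whole worms at 48 h (the L4 larval stage) in snpc-4::3xflag; snpc-1.3(-), snpc-4::3xflag and N2, and at 72 h in snpc-4::3xflag; snpc-1.2(-), snpc-4::3xflag and another N2 group. Whole worms mix germline and body cells, so a peak there can come from either.

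Read depth is unknown. The lists held 14538 to 16732 peaks for SNPC-4 in its 12 tagged libraries. SNPC-1.1 replicates 2, 3 and 4 had 14912, 1504 and 10238 peaks, SNPC-1.2 replicates 1, 2 and 3 had 9926, 8397 and 4791, the AID strain had 281, 81 and 67, and the N2 lists had 2 to 4229. The label text of N2 replicate 2 at 56 h also mentions SNPC-1.2, and values without it are given where they matter. A gene was given a peak if any summit fell no farther than 200 bp from it, and was called used by a protein when at least 2 of the 3 libraries had one. Groups of 3 against 3 allow no exact two-sided p below 0.1, so counts are given against the share of all 46926 genes that met the same rule, without p-values.

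Most snRNA genes carried SNPC-4 and SNPC-1.1, and fewer carried SNPC-1.2. SNPC-1.1 had a peak at 68, 54 and 67 of the 88 genes, against 11, 13 and 1 in N2 germline nuclei, and these SNPC-1.1 lists had one at 15.5%, 1.49% and 11.7% of all genes. As percentages these were 71.6 ± 8.88% for SNPC-1.1 and 9.47 ± 7.31% for N2 (mean ± SD, n = 3 each). SNPC-1.2 had a peak at 43, 29 and 18 genes, against 0 in each N2 library of its dataset, or 34.1 ± 14.2% for SNPC-1.2. Per library this was 48.9%, 33.0% and 20.5% of the snRNA genes, where 28.0%, 26.3% and 18.1% of all genes had an SNPC-1.2 peak. SNPC-4 at 48 h had a peak at 66, 66 and 67 genes and N2 at 21, 23 and 14 (75.4 ± 0.656% for SNPC-4 and 22.0 ± 5.37% for N2). SNPC-4 at 72 h had a peak at 70, 68 and 70 genes and N2 at 20, 17 and 23 (78.8 ± 1.31% for SNPC-4 and 22.7 ± 3.41% for N2). Of all genes, 33.0%, 31.2% and 32.4% had an SNPC-4 peak at 48 h, and 33.8%, 32.5% and 33.7% at 72 h. In each pair the tagged libraries all lay above the N2 libraries.

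**Figure D1:**
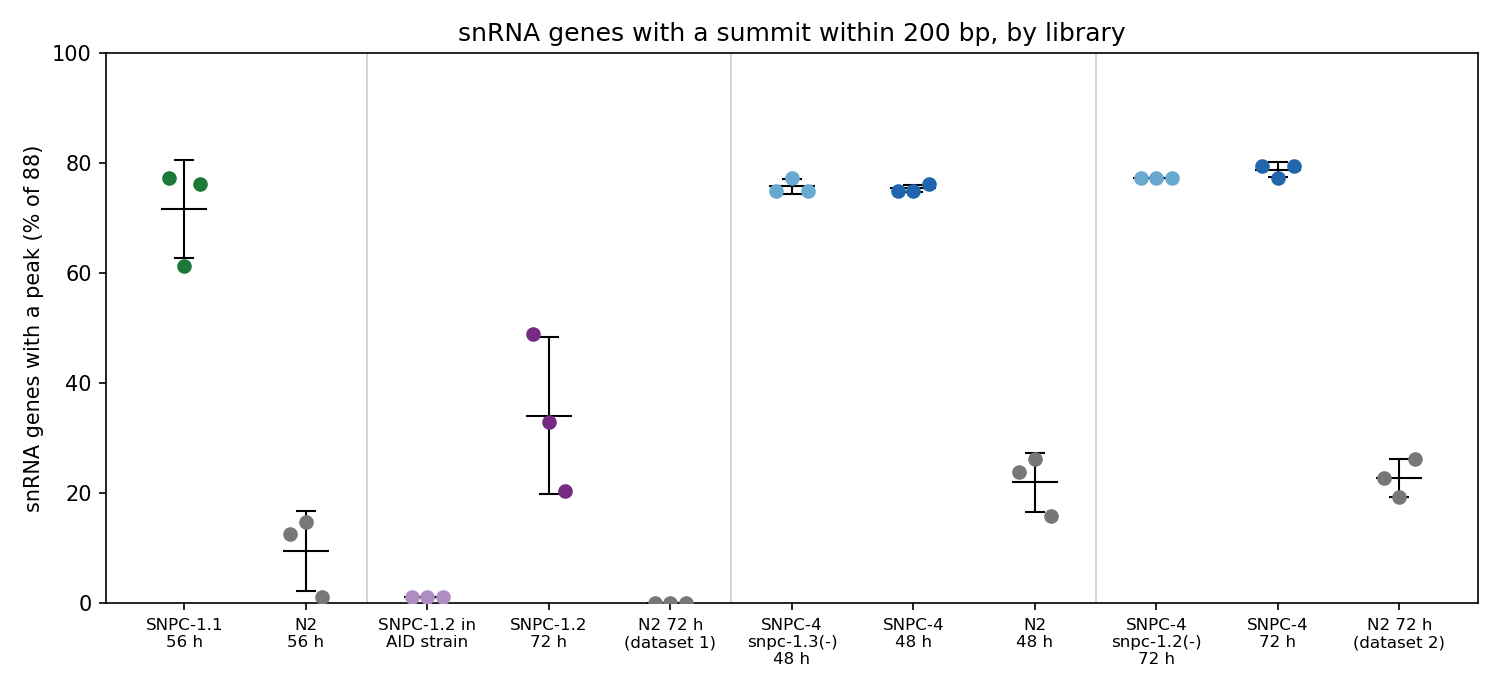
Percent of the 88 snRNA genes with a summit within 200 bp (y axis) in each IP library (points), with the mean and SD of each group of 3 (black). SNPC-4 and SNPC-1.1 libraries lie between 61.4% and 79.5%, SNPC-1.2 libraries between 20.5% and 48.9%, the AID strain at 1.14%, and N2 libraries between 0% and 26.1%.

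The stricter count was a peak in all 3 tagged libraries and in none of the 3 N2 libraries. It was met by 40 snRNA genes for SNPC-1.1, or 45.5% of them, where 0.778% of all genes met it. SNPC-4 also met it at 40 genes at 48 h, where the share of all genes was 22.7%, and at 40 genes at 72 h, where it was 22.9%. Any N2 peak excludes a gene, whatever the tagged fold. The 6 genes with the highest SNPC-4 folds, given below, are thus not among the 40 at either age. For SNPC-1.2 the rule was met by 15 genes, or 17.0%, where the share of all genes was 12.3%. Of the 5764 genes of any kind that met it, 5047 were piRNA genes. The N2 part removed no snRNA gene for SNPC-1.2, whose N2 lists held 16, 2 and 2 peaks. Before it, all 3 tagged libraries had a peak at 15 genes for SNPC-1.2 and 54 for SNPC-1.1. For SNPC-4 the numbers were 65 at 48 h and 68 at 72 h. Shares of all genes were not computed for these counts before the N2 part. Without SNPC-1.2 replicate 3, the shortest of its lists, the SNPC-1.2 count was 28. The SNPC-1.1 count was 52 without its replicate 3 and 41 without the doubtful N2 library. Shares of all genes were not computed for the counts with a library left out. The 0.778% for SNPC-1.1 could not exceed 1.49%, the share of all genes reached by its replicate 3 of 1504 peaks. A peak in at least 2 SNPC-1.1 libraries and in no N2 library at 56 h was found at 52 snRNA genes and at 4172 of all 46926 genes.

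Use by SNPC-1.1 and use by SNPC-1.2 each fell within use by SNPC-4 at 72 h. SNPC-4 at 72 h used 70 snRNA genes, where 33.4% of all genes were used, SNPC-4 at 48 h used 66 (32.2% of all genes), SNPC-1.1 used 66 (10.7% of all genes), and SNPC-1.2 used 31 (25.2% of all genes). All 66 genes used by SNPC-1.1 were used by SNPC-4 at 72 h, where 9.2% of all genes were used by both, and so were all 31 used by SNPC-1.2. Of all genes, 1.48% were used by SNPC-1.1 and not by SNPC-4 at 72 h, and 4.03% by SNPC-1.2 and not by SNPC-4. piRNA genes made up 9719 of the 11834 genes of any kind used by SNPC-1.2. They were 9822 of the 15683 used by SNPC-4 at 72 h. SNPC-4 at 72 h, SNPC-1.1 and SNPC-1.2 shared 30 genes, where 3.67% of all genes were shared. W07G1.24, K09B11.15, C35D6.6 and C35D6.7 were used by SNPC-4 at 72 h and not by SNPC-1.1, which 24.2% of all genes were. K09B11.15 was counted there through the summit of its neighbour K09B11.16, which SNPC-1.1 used too. Another 24 genes were used by SNPC-1.1 and SNPC-4 with no SNPC-1.2 peak in any library, where 3.64% of all genes met that rule, and 12 more had an SNPC-1.2 peak in a single library, where 1.88% of all genes did. Leaving out SNPC-1.2 replicate 1 or replicate 2 lowered the 30 shared genes to 15 or 18, because both remaining libraries then had to hold a peak, and leaving out SNPC-1.1 replicate 2 or replicate 4 lowered the 24 to 13. The single gene with SNPC-1.2 use and no SNPC-1.1 peak was C35D6.7, in the larger piRNA cluster, where 20.6% of all genes met that rule.

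**Figure D2:**
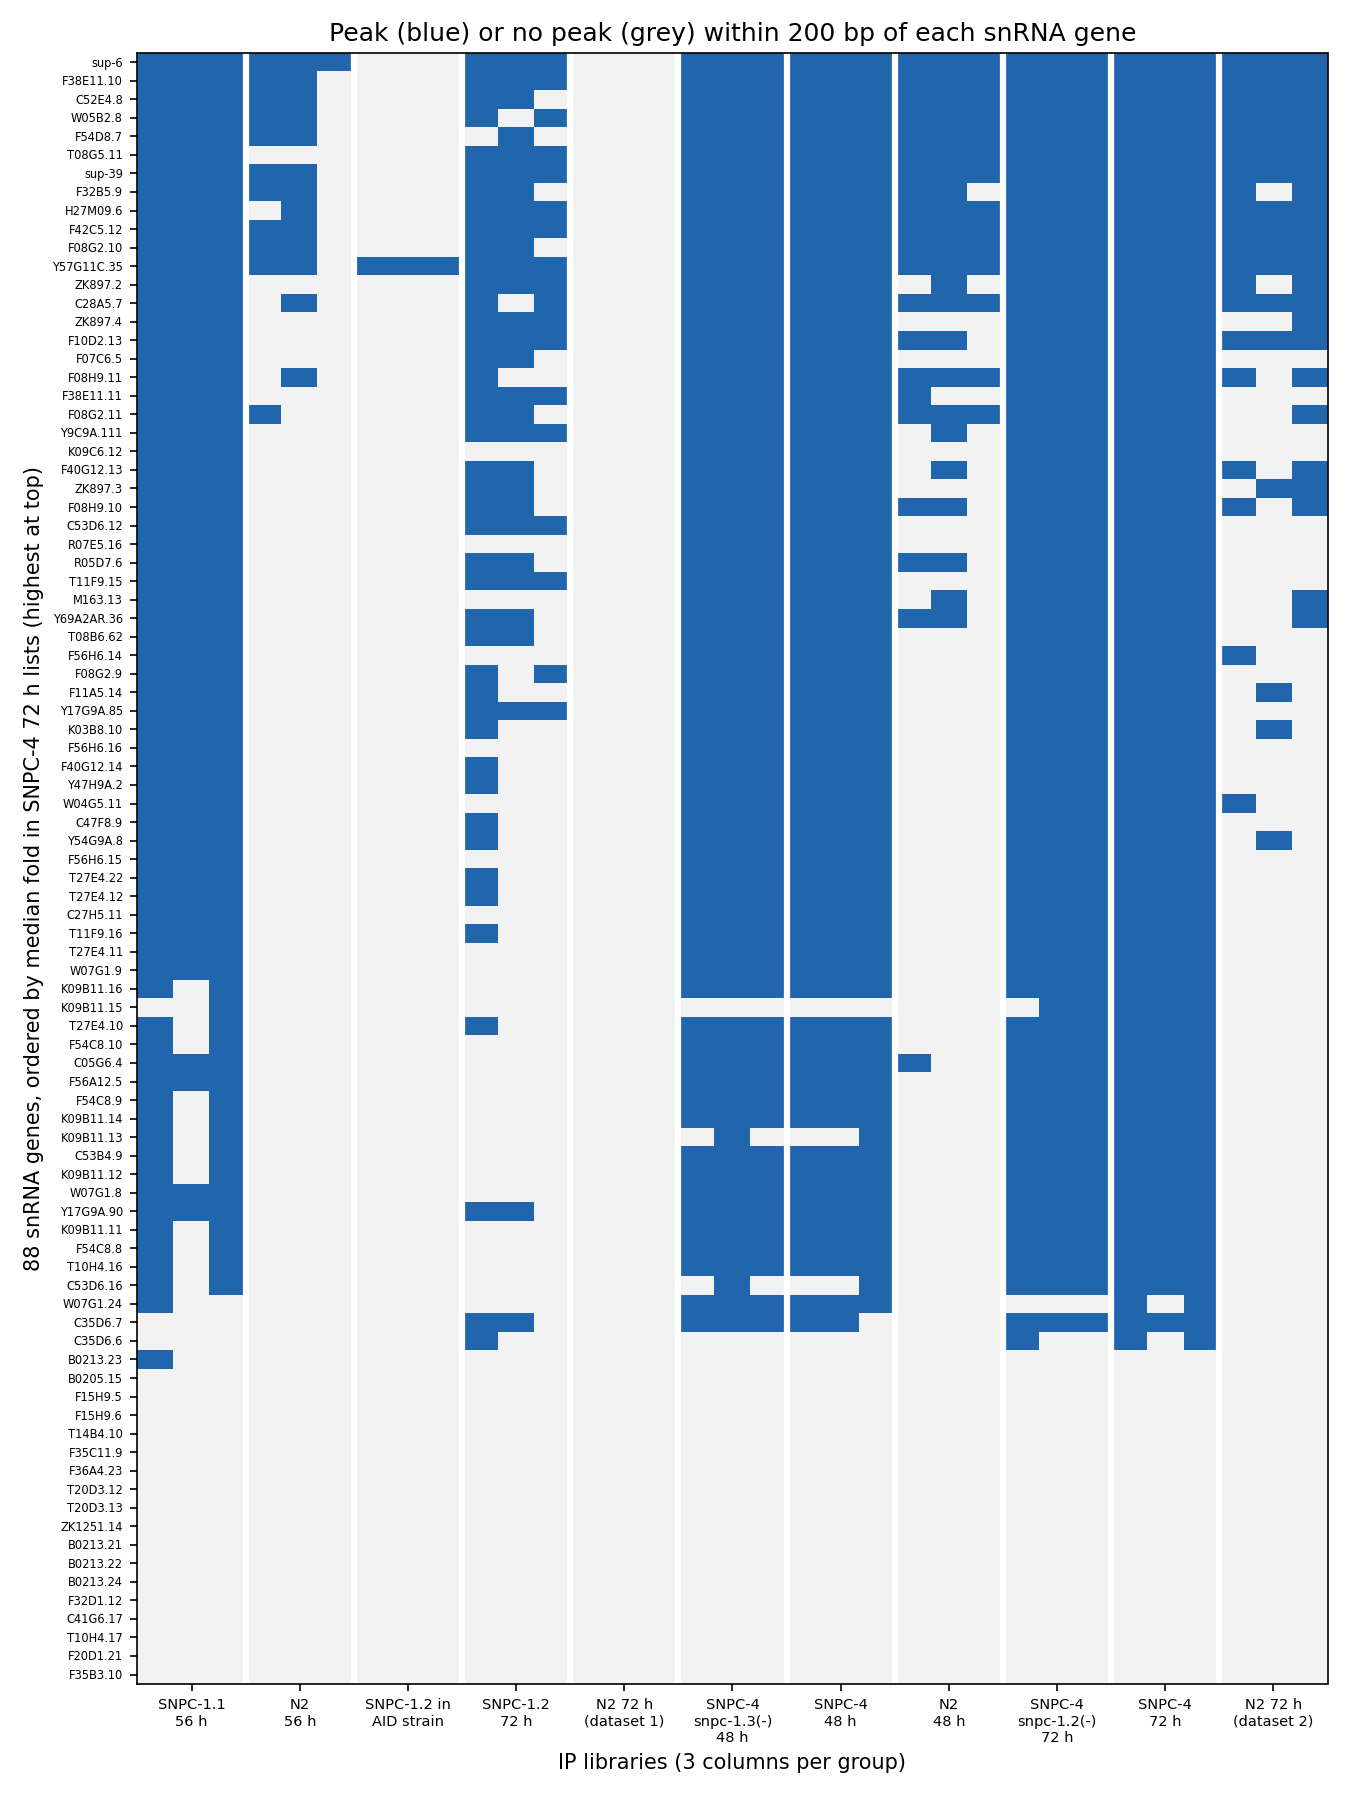
Each row is an snRNA gene, ordered from the highest median SNPC-4 72 h fold at the top, and each column is an IP library, 3 per group. Blue marks a peak within 200 bp. SNPC-4 and SNPC-1.1 columns are filled for most rows, SNPC-1.2 and N2 columns mainly near the top, and the last 17 rows are empty.

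The peak lists differ in length, so each tagged list was also reduced to its 1504 best peaks by q, the length of the shortest. SNPC-1.1 then had a peak at 53, 54 and 61 snRNA genes, where 1.53%, 1.49% and 1.98% of all genes had one. SNPC-1.2 had a peak at 3, 7 and 8 snRNA genes, where 8.41%, 8.36% and 7.3% of all genes had one. SNPC-4 had a peak at 51, 50 and 51 snRNA genes at 48 h (2.19%, 2.53% and 2.22% of all genes) and at 63, 62 and 63 at 72 h (2.9%, 2.97% and 3.18% of all genes). The SNPC-1.2 share of snRNA genes, 3.41%, 7.95% and 9.09%, was below, near and above its share of all genes at this length. That share includes the 15363 piRNA genes, of which SNPC-1.2 reached 24.2%, 23.8% and 20.1%, and a share without them was not computed at this length. Every SNPC-4 and SNPC-1.1 library lay above every SNPC-1.2 library in snRNA genes. Among the 15363 piRNA genes the place of SNPC-1.2 was reversed, from lowest to highest. Of them, 0.404%, 0.924% and 0.462% had a peak in the shortened SNPC-1.1 lists, 24.2%, 23.8% and 20.1% in the SNPC-1.2 lists, 2.23% to 3.60% in the SNPC-4 48 h lists and 3.03% to 4.07% in the SNPC-4 72 h lists. SNPC-1.1 came from germline nuclei and SNPC-1.2 from whole adults, so protein and material cannot be told apart in that pair. SNPC-4 at 72 h and SNPC-1.2 were both profiled in whole gravid adults, in separate datasets.

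**Figure D3:**
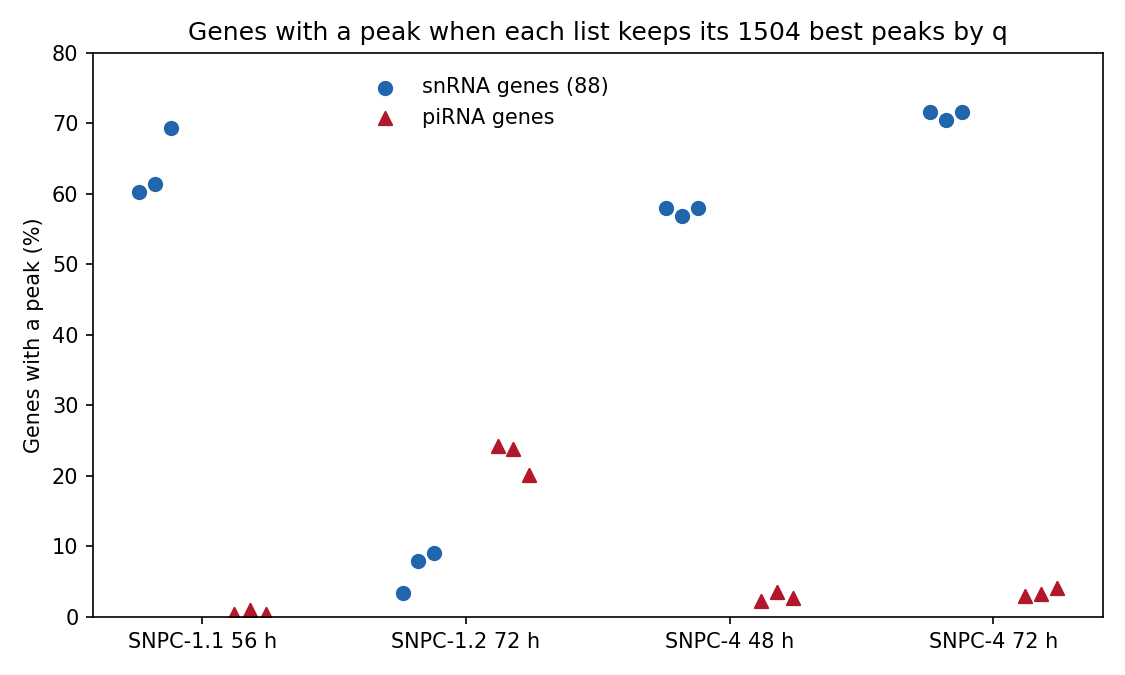
Percent of snRNA genes (blue circles) and piRNA genes (red triangles) with a peak after every list was cut to its 1504 best peaks by q, with 1 point per library. snRNA genes lie at 56.8% to 71.6% in SNPC-4 and SNPC-1.1 lists and at 3.41% to 9.09% in SNPC-1.2 lists, while piRNA genes lie highest in SNPC-1.2 lists.

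The fold of a peak, the authors' ratio of IP over input at the summit, placed snRNA genes at the top of the SNPC-1.1 and SNPC-4 lists. The median snRNA gene with a peak had a fold of 46.5, 6.30 and 37.7 in the SNPC-1.1 lists, whose median peaks had 2.93, 1.96 and 2.92. In the SNPC-4 lists it had 38.8, 31.9 and 42.8 at 48 h and 46.8, 40.3 and 49.0 at 72 h, above about 99% of each list's peaks. In the SNPC-1.2 lists it had 3.73, 3.83 and 4.00, near the median peak of 3.61, 3.67 and 3.66. Among the 100 peaks with the highest fold, 21, 28 and 24 of the SNPC-1.1 lists, 1 of each SNPC-1.2 list and 24 to 27 of the SNPC-4 lists lay at snRNA genes.

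The same 6 genes had the highest median folds for SNPC-1.1, SNPC-4 at 48 h and SNPC-4 at 72 h. They were sup-6 (chromosome II, 12944803 to 12944967, inside the protein-coding gene F58G1.7), F38E11.10 (chromosome IV, 9444642 to 9444763, in no protein-coding gene), C52E4.8 (chromosome V, 11980118 to 11980261, in no protein-coding gene), W05B2.8 (chromosome III, 10989679 to 10989780, inside the dynein heavy chain gene dhc-4), F54D8.7 (chromosome III, 5080798 to 5080898, in no protein-coding gene) and T08G5.11 (chromosome V, 14028471 to 14028635, in no protein-coding gene). sup-6 had folds of 284, 21.7 and 187 for SNPC-1.1, 4.61, 3.96 and 4.07 for SNPC-1.2, 242, 184 and 210 for SNPC-4 at 48 h and 244, 169 and 261 at 72 h. In N2 its folds were 2.78, 3.28 and 2.65 at 56 h, 3.64, 4.09 and 2.98 at 48 h and 3.77, 2.96 and 4.75 at 72 h. It was the only snRNA gene with a peak in every N2 library of the SNPC-1.1 and SNPC-4 datasets. C52E4.8 had folds of 312, 21.8 and 199 for SNPC-1.1, 6.43 and 4.40 in the SNPC-1.2 replicates 1 and 2 with no peak in replicate 3, and 219, 174 and 262 for SNPC-4 at 72 h, against 4.19, 3.18 and 5.69 in N2 at 72 h. F38E11.10 had folds of 274, 16.7 and 193 for SNPC-1.1 and 231, 182 and 274 for SNPC-4 at 72 h, against 4.37, 3.07 and 5.40 in N2 at 72 h. F54D8.7, despite SNPC-4 folds of 170, 156 and 196 at 72 h, had an SNPC-1.2 peak in replicate 2 alone, with a fold of 2.32. sup-39 (chromosome II, 6968394 to 6968558, inside C15F1.5) had folds of 163, 13.6 and 126 for SNPC-1.1 and 152, 131 and 174 for SNPC-4 at 72 h, against 3.12, 3.27 and 4.40 in N2 at 72 h.

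The fold of SNPC-4 and SNPC-1.1 peaks went with SNPC-1.2 use. In SNPC-4 72 h replicates 1, 2 and 3, the median fold was 102, 82.3 and 105 at the 31 genes used by SNPC-1.2. It was 36.5, 27.4 and 33.3 at genes with an SNPC-1.2 peak in 1 library, and 11.7, 9.86 and 13.0 at genes with none. Of the 22 genes with the highest median SNPC-4 fold at 72 h, 19 were used by SNPC-1.2, and of the 22 with the lowest, 2 were. The same counts were 20 and 1 when genes were ordered by SNPC-1.1 fold. N2 peaks moved with both. At least 2 of 3 libraries of an N2 group had a peak at 22 snRNA genes, where 3.88% of all genes had one. In all 3 N2 groups of the SNPC-1.1 and SNPC-4 datasets this held for 10 genes, and for 0.479% of all genes. The 10 were F32B5.9, sup-39, sup-6, F08G2.10, F54D8.7, W05B2.8, F42C5.12, F38E11.10, Y57G11C.35 and C52E4.8. The 22 had SNPC-4 72 h folds of 49.1 to 274, while the genes without any N2 peak (56 of 88, and 91.9% of all genes) had 1.58 to 105 where they had a peak. Of the 31 genes used by SNPC-1.2, 20 were among the 22, where 1.83% of all genes met both rules, and 8 had no N2 peak in any dataset, where 22.6% did. N2 folds at snRNA genes ran from 1.61 to 6.02. SNPC-1.2 folds, leaving out Y57G11C.35, ran from 1.73 to 10.1. The part of the N2 signal in SNPC-1.2 use was not tested, although the 3 N2 libraries of the SNPC-1.2 dataset held no snRNA peak among their 16, 2 and 2 peaks.

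**Figure D4:**
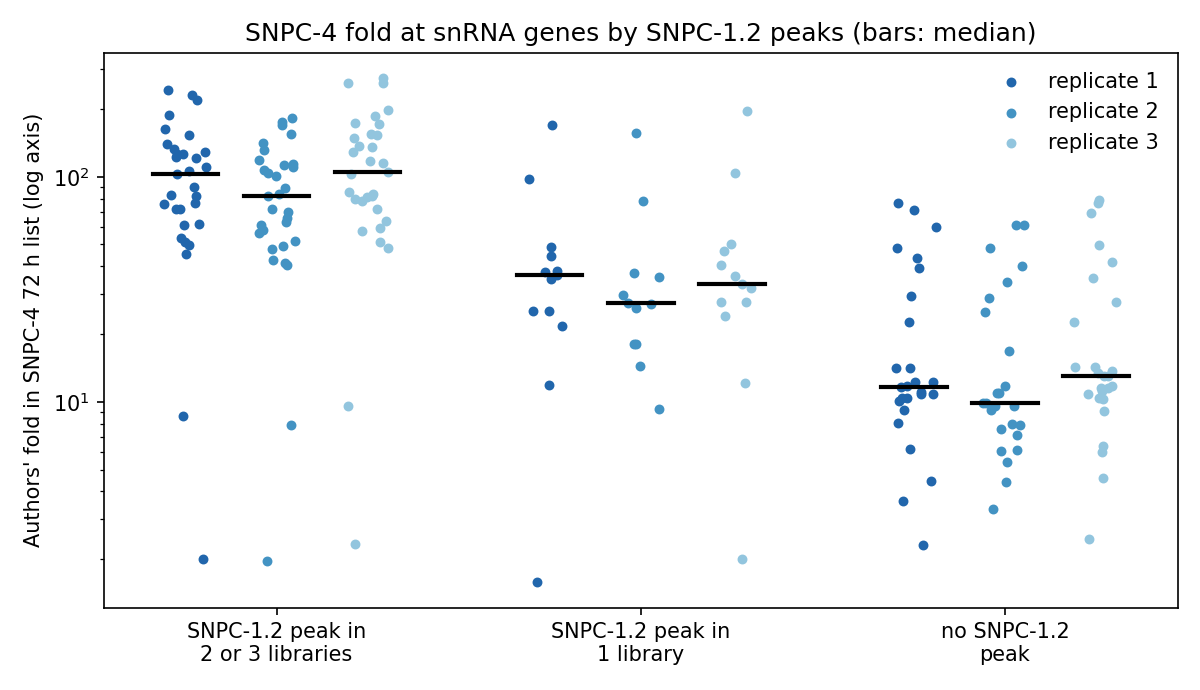
Fold of the best peak at each snRNA gene in the SNPC-4 72 h lists (log axis), by replicate, with genes split by the number of SNPC-1.2 libraries with a peak. Bars are medians, which fall in each replicate with fewer SNPC-1.2 libraries, for example 102, 36.5 and 11.7 in replicate 1.

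The 6 genes most strongly marked by SNPC-1.2 were mostly not the 6 highest for SNPC-4, although their SNPC-4 folds were also high. Y57G11C.35 (chromosome IV, 14764848 to 14765034, inside the protein-coding gene Y57G11C.5 and the larger piRNA cluster) stood apart, with SNPC-1.2 folds of 44.2, 40.6 and 32.9. The next highest was F38E11.10 with 10.1, 8.00 and 6.30. ZK897.2 had 7.73, 7.64 and 7.63, F42C5.12 had 7.07, 8.68 and 5.99, and Y9C9A.111, in the smaller piRNA cluster, had 5.84, 8.53 and 4.36. T08B6.62, in the same cluster, had 6.81 and 8.38 in replicates 1 and 2 and no peak in replicate 3. At the lower end of SNPC-1.2 use were C28A5.7 with 1.73 and 2.91 (replicates 1 and 3), R05D7.6 with 2.59 and 2.17, Y69A2AR.36 with 2.01 and 2.84, and Y17G9A.90 with 2.92 and 2.07 (replicates 1 and 2 each). Of the 6 highest SNPC-1.2 genes with a peak in all 3 libraries, 1 (F38E11.10) was also among the 6 highest for SNPC-4. The others had median SNPC-4 72 h folds of 129 (F42C5.12), 126 (Y57G11C.35), 122 (ZK897.2), 106 (F10D2.13) and 82.5 (Y9C9A.111). The median snRNA gene with a peak had 46.8, 40.3 and 49.0 in those lists. The piRNA genes 21ur-1572 and 21ur-14078 and an ncRNA gene lie within 500 bp of Y57G11C.35. Among other genes used by SNPC-1.2, a piRNA or tRNA gene lies that near sup-39, Y17G9A.85, Y17G9A.90, T08B6.62 and C53D6.12. Of 43 snRNA genes with another short RNA gene within 500 bp, SNPC-1.2 used 22, SNPC-1.1 used 40 and SNPC-4 at 72 h used 41. Of the 45 without, they used 9, 26 and 29 (25.2%, 10.7% and 33.4% of all genes). Which gene holds such a peak was not tested.

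Genes with no SNPC-1.2 peak included strong SNPC-1.1 and SNPC-4 targets. R07E5.16, inside mpc-1 (a mitochondrial pyruvate carrier gene) on chromosome III, had folds of 96.0, 6.52 and 50.8 for SNPC-1.1 and 71.0, 61.2 and 79.2 for SNPC-4 at 72 h, with no N2 peak. K09C6.12 had 41.9, 6.50 and 39.0 for SNPC-1.1 and 76.8, 60.9 and 76.5 for SNPC-4 at 72 h, also with no N2 peak. M163.13, the only gene of the 3 on the X chromosome with any peak, had 54.6, 5.82 and 40.0 for SNPC-1.1 and 60.0, 48.2 and 69.1 for SNPC-4 at 72 h. In N2 it had a single peak at each of 48 h and 72 h, of 1.72 and 2.05. F56H6.16, F56H6.14 and W04G5.11 completed the 6 with the highest median SNPC-1.1 fold in this class, at 37.7, 36.6 and 35.6.

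SNPC-4 peaks were found at similar numbers of snRNA genes with and without SNPC-1.3 or SNPC-1.2. SNPC-4 in snpc-1.3(-) worms had a peak at 66, 68 and 66 genes, against 66, 66 and 67 in snpc-4::3xflag worms at 48 h. SNPC-4 in snpc-1.2(-) worms had a peak at 68, 68 and 68 genes, against 70, 68 and 70 at 72 h. No snRNA gene was gained or lost in all 3 libraries against none in either strain. Of all genes, 0.275% were gained and 0.175% lost in snpc-1.3(-), and 0.631% gained and 1.61% lost in snpc-1.2(-). The nearest to a loss was W07G1.24, with no SNPC-4 peak in snpc-1.2(-) worms and folds of 2.31 and 2.47 in replicates 1 and 3 of snpc-4::3xflag worms. Median folds at snRNA genes were 42.3, 42.5 and 41.2 in snpc-1.3(-) worms and 38.8, 31.9 and 42.8 in snpc-4::3xflag worms at 48 h. At 72 h they were 37.0, 46.0 and 58.1 in snpc-1.2(-) worms and 46.8, 40.3 and 49.0 in snpc-4::3xflag worms, so the ranges overlapped in both pairs.

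In the SNPC-4 AID strain, SNPC-1.2 had a peak at 1 snRNA gene in each library, Y57G11C.35, with folds of 2.97, 3.43 and 4.05. The other 14 of the 15 genes with SNPC-1.2 in all 3 snpc-1.2::3xflag libraries had none, which is 15.9% of the 88, where 11.9% of all genes were lost in this way. Among them were sup-6, sup-39, F38E11.10 and ZK897.2. Without SNPC-1.2 replicate 3 the count was 27. Of the 5577 genes of any kind lost in this way, 5021 were piRNA genes. The AID strain lists are short, and when all 6 lists were cut to 67 peaks no gene met the rule. The comparison shares its snpc-1.2::3xflag libraries with the comparison to N2 above.

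Whether SNPC-4 had a peak differed between 72 h and 48 h at few snRNA genes, at shares near or below those of all genes. By the 200 bp rule K09B11.15 alone among snRNA genes had peaks in every 72 h library (folds of 12.2, 10.9 and 14.2) and in none at 48 h, where 1.43% of all genes met that rule. That summit is the one of its neighbour K09B11.16, which had a peak in all 3 libraries at both ages. It lay 194, 195 and 182 bp from K09B11.15 at 72 h and 230, 216 and 224 bp from it at 48 h, on either side of the limit. No snRNA gene had the reverse, where 1% of all genes did. C53D6.16 (3.63, 3.35 and 4.59 at 72 h) and K09B11.13 (10.4, 9.58 and 11.5 at 72 h) had a single peak at 48 h, and C35D6.6 had 1.58 and 2.01 at 72 h and none at 48 h. With these 3, used at 72 h and not at 48 h were 4 snRNA genes, where 5.14% of all genes were, and used at 48 h and not at 72 h were 0, where 3.93% were. K09B11.13 was likewise counted through the summit of K09B11.14, used at both ages, which lay 180, 162 and 168 bp from it at 72 h and 203, 209 and 168 bp at 48 h. The 2 genes C53D6.16 and C35D6.6 remain without this. The labels do not say whether libraries of both ages came from shared cultures.

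snRNA genes with another such gene within 5000 bp had lower median SNPC-4 folds at 72 h than lone genes. Such a neighbour is called a near copy here by distance alone. No sequences were compared, and some neighbours overlap (T20D3.12 and T20D3.13, T27E4.22 and T27E4.12) or differ in length. Of the 37 genes with a near copy, SNPC-1.1 used 26, SNPC-1.2 used 7, SNPC-4 at 48 h used 25 and SNPC-4 at 72 h used 29. Of the 51 without, SNPC-1.1 used 40, SNPC-1.2 used 24, SNPC-4 at 48 h used 41 and SNPC-4 at 72 h used 41. These differences in use were not tested. With near copies counted within 20000 bp, SNPC-1.2 used 18 of 54 such genes. N2 peaks followed the same split, with 0, 0 and 2 of the 37 in at least 2 libraries of N2 at 56 h, 48 h and 72 h, and 10, 19 and 17 of the 51, where 0.56%, 2.68% and 2.97% of all genes had such peaks. In SNPC-4 72 h replicates 1, 2 and 3 the median fold was 11.9, 9.88 and 13.0 with a near copy and 76.3, 62.0 and 79.2 without. Reads from near-identical sequences can be lost or shared in mapping. Whether these genes are near-identical was not checked, and the aligner is not given in the sources used here. The part of mapping in these folds was not tested.

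The near copies formed 13 sets, 7 of them with 3 or more genes. The largest held 6 genes of 102 bp, K09B11.11 to K09B11.16, inside mam-3 on chromosome IV between 13435785 and 13443846. It had no peak in SNPC-1.2, in N2 or in SNPC-1.1 replicate 3, SNPC-1.1 folds of 5.54 to 7.47, and SNPC-4 folds of 2.90 to 3.85 at 48 h and 7.58 to 14.2 at 72 h. Its genes K09B11.13 and K09B11.14, and K09B11.15 and K09B11.16, lie 248 bp apart and shared a single summit in the SNPC-4 72 h lists, so each of these pairs is 1 observation there. F54C8.8, F54C8.9 and F54C8.10, inside F54C8.6 on chromosome III, had SNPC-1.1 folds of 3.66 to 8.99 in replicates 2 and 4 and SNPC-4 folds of 5.41 to 13.0 at 72 h, with no SNPC-1.2 or N2 peak. T27E4.11, T27E4.10, T27E4.22 and T27E4.12 on chromosome V had SNPC-4 folds of 9.26 to 27.7 at 72 h, and the last pair overlap and shared 1 summit.

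Other sets carried stronger peaks. F56H6.16, F56H6.14 and F56H6.15, of 187 bp each on chromosome I, had SNPC-4 folds of 25.0 to 49.8 at 72 h and no SNPC-1.2 peak. ZK897.2, ZK897.3 and ZK897.4, of 122 bp each and inside unc-31 (a gene for dense-core vesicle release) on chromosome IV, had SNPC-1.1 folds of 7.93 to 104, SNPC-1.2 folds of 3.37 to 7.73 and SNPC-4 folds of 61.3 to 137 at 72 h. It was the only set of 3 or more in which SNPC-1.2 used every gene. C53B4.9, C53D6.16 and C53D6.12 differed among themselves, with SNPC-4 72 h folds of 10.8, 7.89 and 10.4, of 3.63, 3.35 and 4.59, and of 71.7, 56.2 and 79.4, and SNPC-1.2 used the last alone. B0213.21, B0213.22 and B0213.23, each inside a cytochrome P450 gene of the cyp-34A family on chromosome V, had 1 peak in all, at B0213.23 in SNPC-1.1 replicate 2 with a fold of 2.40.

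SNPC-1.2 used most of the few snRNA genes inside the piRNA clusters of chromosome IV, regions where it used many genes of any kind. Of the 7 snRNA genes inside a cluster, SNPC-1.1 used 5, SNPC-1.2 used 6 and SNPC-4 at 72 h used 7. Of the 81 outside, SNPC-1.1 used 61, SNPC-1.2 used 25 and SNPC-4 at 72 h used 63. On chromosome IV outside the clusters SNPC-1.2 used 9 of 22. Among all genes other than piRNA genes, SNPC-1.2 used 50.0% of 1543 inside the clusters and 4.48% of 30020 outside, SNPC-1.1 used 17.4% inside and 14.0% outside, and SNPC-4 at 72 h used 62.3% inside and 16.3% outside. C35D6.7 and C35D6.6, neighbours in the larger cluster, had no SNPC-1.1 peak. C35D6.7 had SNPC-1.2 folds of 3.19 and 2.69 in replicates 1 and 2 and SNPC-4 folds of 2.01, 1.96 and 2.33 at 72 h. Y17G9A.85, in the smaller cluster, had folds of 26.1, 4.19 and 29.3 for SNPC-1.1, 4.81, 6.44 and 4.00 for SNPC-1.2 and 45.3, 41.4 and 51.3 for SNPC-4 at 72 h. Requiring all 3 libraries and no N2 peak in the same dataset lowered SNPC-1.2 use inside the clusters to 3 of 7. Those N2 lists held 16, 2 and 2 peaks.

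Genes of the same annotated length were described together. Of all genes, SNPC-1.1 used 10.7%, SNPC-1.2 used 25.2% and SNPC-4 at 72 h used 33.4%. SNPC-1.2 used 10 of the 11 genes of about 122 bp, among them F38E11.10, F42C5.12 and the ZK897 genes, and SNPC-4 at 72 h used all 11. Of the 11 genes of about 165 bp, which include sup-6 and sup-39, SNPC-1.1 and SNPC-4 used 11 and SNPC-1.2 used 6. Of the 19 of about 187 bp, SNPC-1.1 and SNPC-4 used 16 and SNPC-1.2 used 5. Of the 24 of about 102 bp, SNPC-1.1 used 18, SNPC-1.2 used 6 and SNPC-4 at 72 h used 19. All 5 genes of about 144 bp were used by SNPC-1.1 and SNPC-4 and 3 by SNPC-1.2. Of the 18 genes of other lengths, SNPC-1.1 used 6, SNPC-1.2 used 1 and SNPC-4 at 72 h used 8. The SNPC-1.2 shares of 26.3% at about 187 bp and 25% at about 102 bp were near its share of all genes. That share is mostly piRNA genes, 9719 of the 11834 used, and SNPC-1.2 used 5.97% of protein-coding genes. N2 at 48 h and 72 h had peaks in at least 2 libraries at 4 and 5 genes of about 122 bp and 6 and 7 of about 165 bp. These numbers were 4 and 2 at about 187 bp, 3 and 3 at about 102 bp, 2 and 2 at about 144 bp and 0 and 0 at other lengths. The length classes (within 2 bp of the length named) were formed after the annotation was seen.

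The summits lay just outside the genes and on a constant side. In the SNPC-4 and SNPC-1.1 lists of unmutated worms, 0 to 3 snRNA genes per library had their best summit inside the gene, and the others had medians of 35 to 46 bp beyond the nearer end. Over the 69 genes with peaks in at least 6 tagged libraries, the median distance beyond the nearer end was 43 bp, and 48 genes lay between 30 and 70 bp. All tagged summits of a gene lay on the same side of its middle for 65 of the 69, on the side of lower coordinates for 30 and of higher coordinates for 35. The annotation used gives no strand, so upstream and downstream were not assigned. The SNPC-1.1 and SNPC-4 72 h summits were on the same side at all 66 shared genes, a median of 4 bp apart. The SNPC-1.2 and SNPC-4 72 h summits were on the same side at all 31 shared genes, a median of 33 bp apart.

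SNPC-1.2 summits more often fell inside the gene than SNPC-4 summits at the genes they share. At the 31 genes used by both, the median summit lay inside the gene at 8 for SNPC-1.2 and at 0 for SNPC-4 at 72 h. Per library, 18 of 43, 10 of 29 and 6 of 18 SNPC-1.2 summits lay inside, as did 6 of 20, 6 of 17 and 7 of 23 N2 summits at 72 h, while 3 of 70, 2 of 68 and 2 of 70 SNPC-4 72 h summits did. The 3 SNPC-1.2 libraries thus lay above the 3 SNPC-4 libraries in this share.

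**Figure D5:**
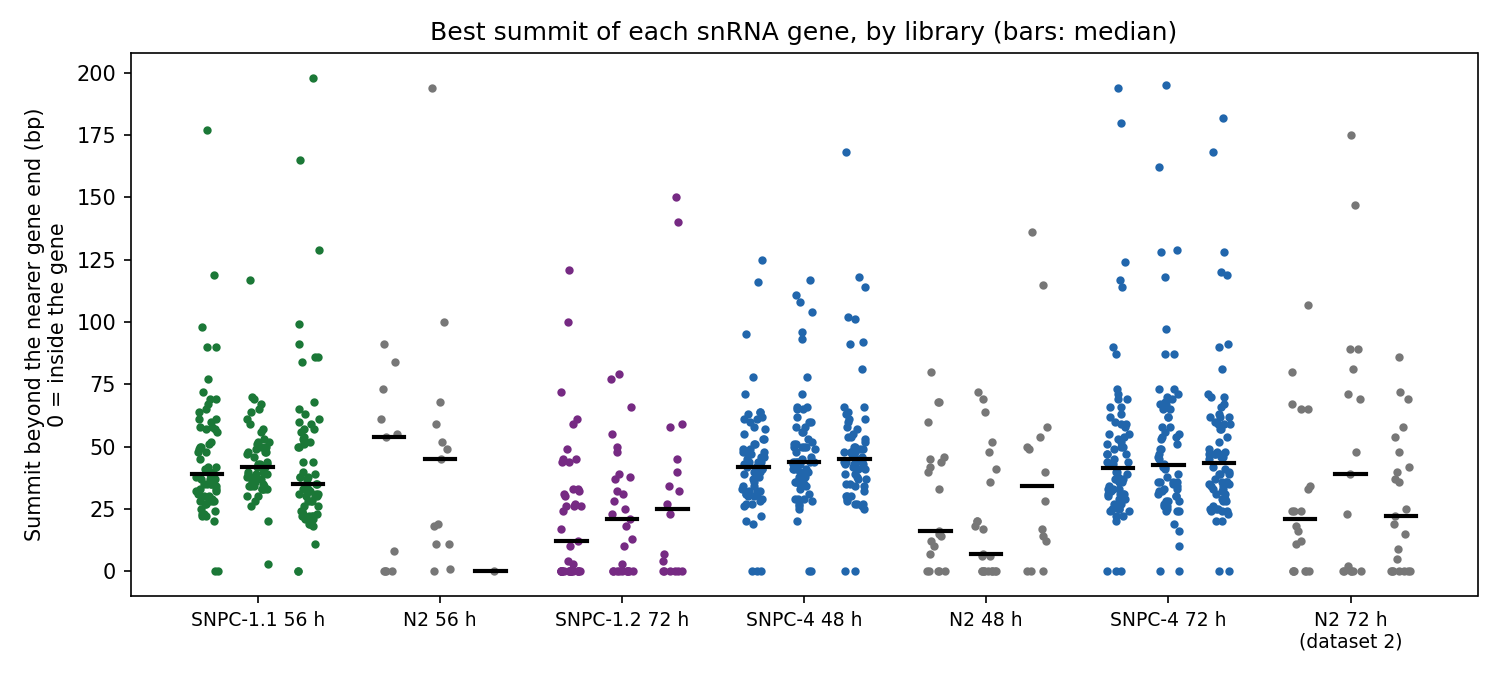
Distance of the best summit of each snRNA gene beyond the nearer end of the gene, in bp, with 0 for a summit inside it. Each column of points is a library and bars are medians over its genes with a peak. SNPC-1.1 and SNPC-4 summits gather near 35 to 46 bp, while SNPC-1.2 and N2 lists have more summits at 0.

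No peak was found in any of the 33 lists at 17 snRNA genes, or 19.3%, where 48.7% of all genes had none (50.6% in the 12 tagged libraries of unmutated worms). They were B0205.15, F15H9.5 and F15H9.6 on chromosome I, T14B4.10 and F35C11.9 on II, F36A4.23, T20D3.12, T20D3.13 and ZK1251.14 on IV, B0213.21, B0213.22, B0213.24, F32D1.12, C41G6.17 and T10H4.17 on V, and F20D1.21 and F35B3.10 on X. None was near the limit of 200 bp: the closest summit of SNPC-1.1, SNPC-1.2 or SNPC-4 in unmutated worms was 1173 bp away at T20D3.13 and 12123 bp away at F35B3.10, with a median of 3532 bp. Of the 17, 11 lie inside protein-coding genes, including the chemoreceptor-family genes srz-85 (B0205.15) and sri-17 (F15H9.5), and 9 are of lengths outside the common classes. Whether these loci gave uniquely mapped reads is not given in the sources used here.

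At the other end, 15 snRNA genes had a peak in all 12 tagged libraries of unmutated worms, where 0.324% of all genes did. They were H27M09.6, sup-39, sup-6, Y17G9A.85, Y9C9A.111, F42C5.12, C53D6.12, F38E11.10, F38E11.11, ZK897.2, ZK897.4, Y57G11C.35, F10D2.13, T11F9.15 and T08G5.11. Of these, Y17G9A.85, C53D6.12 and T11F9.15 had no peak in any N2 library. T11F9.15 had folds of 43.3, 6.21 and 45.1 for SNPC-1.1, 4.18, 3.22 and 3.09 for SNPC-1.2 and 61.1, 47.5 and 72.1 for SNPC-4 at 72 h. C53D6.12 had 58.2, 7.19 and 52.9 for SNPC-1.1, 5.27, 2.92 and 3.37 for SNPC-1.2 and 71.7, 56.2 and 79.4 for SNPC-4 at 72 h.

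High use by SNPC-1.1 and SNPC-4 was shared by some other short RNA genes and not by all. Of all genes, SNPC-1.1 used 10.7%, SNPC-1.2 used 25.2% and SNPC-4 at 72 h used 33.4%. SNPC-1.1 used 66 of 88 snRNA genes, 10 of 10 SmY genes and 17 of 18 SL2 genes. SNPC-1.2 used 31 of 88 snRNA, 6 of 10 SmY and 15 of 18 SL2 genes. SNPC-4 at 72 h used 70 of 88 snRNA, 10 of 10 SmY and 18 of 18 SL2 genes. Of 634 tRNA genes, which RNA polymerase III transcribes, SNPC-1.1 used 427, SNPC-1.2 used 241 and SNPC-4 at 72 h used 531. The 3 genes for RNase P, RNase MRP and Y RNA were all used by SNPC-1.1 and SNPC-4, and 1 by SNPC-1.2. Of 346 snoRNA genes, whose RNAs guide RNA modification, SNPC-1.1 used 124, SNPC-1.2 used 73 and SNPC-4 at 72 h used 132. Of 12 SL1 genes, SNPC-1.1 used 0, SNPC-1.2 used 0 and SNPC-4 at 72 h used 1. Whether the SL1 loci gave uniquely mapped reads is not given in the sources used here. Of 260 microRNA genes, SNPC-1.1 used 34, SNPC-1.2 used 15 and SNPC-4 at 72 h used 44. Of the 15363 piRNA genes, SNPC-1.1 used 3.48%, SNPC-1.2 used 63.3% and SNPC-4 at 72 h used 63.9%. Among the 100 peaks of highest fold, snoRNA genes held more than snRNA genes, with 30 to 31 in the SNPC-1.1 lists, 4 to 6 in the SNPC-1.2 lists and 30 to 32 in the SNPC-4 lists. There are 346 snoRNA genes and 88 snRNA genes. The 18 SL2 genes held 14 to 16 in the SNPC-1.1 and SNPC-4 lists, and tRNA genes held 31 to 35 in the SNPC-1.2 lists.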

How the data were processed

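Peaks were called with MACS2 2.1.2 on WBcel235, per the submitters' processing notes, which also name deepTools. The aligner and filters are not given in the sources used here. The deposited lists give each peak's fold of IP over input, a ratio computed by the authors, and the −log10 of its q value (lowest 1.30), with a summit offset in bp of another kind. From these, summits were placed with Python 3.11.15 and pandas 2.3.3. Genes of up to 500 bp were given a peak if any summit fell inside them or no farther than 200 bp away, and longer genes if one fell no farther than 200 bp from either end. The best summit had the highest fold. Folds rank or describe peaks within a list and were not tested. No counts were used, so no depth or counting interval is given. Gene assignment was tested on simulated summits.

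Gene symbols and classes came from the RefSeq annotation table of WBcel235. piRNA clusters were chromosome IV from 4500000 to 7000000 and from 13500000 to 17200000. The planned grouping by sequence could not be run without sequences, strand or product names and was replaced by annotated length. The genes, lists and rules were chosen with earlier results of these data known. Genes named were the 6 with the highest median fold for each protein, those at the ends of SNPC-1.2 use, those without SNPC-1.2, those gained, lost or never called, N2-marked genes and sets within 5000 bp; others were named after their values were seen. Same-numbered libraries were not treated as pairs: in none of the 5 comparisons with values did every pair's deviations correlate above 0.1, and the 2 with SNPC-1.2 gave none, since 1 group did not vary between libraries. Replicates are not stated to be separate cultures.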

Additional observations from a re-analysis of the deposited data

How the results depend on the processing

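Counts of snRNA genes over the alternatives: distances of 100 bp and 500 bp, overlap of the called region, −log10 q of at least 10, fold of at least 3, lists shortened to the shortest in the comparison, the replicate block and each library left out. With −log10 q of at least 10, the SNPC-1.2 genes against N2 numbered 6 and those absent from the AID strain 5, those with SNPC-1.1 and SNPC-4 but no SNPC-1.2 peak 37, and those with SNPC-1.2 but no SNPC-1.1 peak 0. With fold of at least 3, the last pair were 39 and 0, and at 100 bp the last was 0. With shortened lists, the SNPC-1.1 count against N2 was 4, that of SNPC-1.2 was 0, that of the AID strain was 0, genes shared by all 3 proteins were 5, those without SNPC-1.2 were 44 and SNPC-1.2 without SNPC-1.1 was 0. The shortest lists held 28 peaks for SNPC-1.1 against N2, 2 for SNPC-1.2 against N2, 67 for the AID strain and 1504 for the counts over the 3 proteins. Requiring all 3 libraries gave 15, 13 and 0 for the shared genes, those without SNPC-1.2 and SNPC-1.2 without SNPC-1.1.

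Without 1 library, counts against N2 were 40 to 44 for SNPC-4 at 48 h and 40 to 44 at 72 h, 15 to 28 for SNPC-1.2 and 40 to 52 for SNPC-1.1. The AID count was 14 to 27, genes shared by all 3 proteins 15 to 30, those without SNPC-1.2 13 to 35, SNPC-1.2 without SNPC-1.1 0 to 1, genes with no peak 17 to 18, and losses in snpc-1.2(-) 0 to 1.

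With the replicate block (at least 2 of 3 same-numbered pairs changed and none the other way), SNPC-1.2 against N2 gave 31, the AID strain 30 and losses in snpc-1.2(-) 1 (W07G1.24); the other blocked counts stayed within 1.5 times. The numbers were not shown to pair the libraries, both SNPC-1.2 comparisons could not be checked, and this rule is looser by construction.

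A stricter rule required all 3 libraries and no peak in N2 of the same dataset and age. By this rule SNPC-1.1 used 44.4% of genes outside the clusters and 37.8% of those with a near copy. SNPC-1.2 used 42.9% inside and 14.8% outside the clusters, and SNPC-4 at 72 h used 43.2% outside. For SNPC-1.2 the N2 part of the rule removed no snRNA gene. With near copies counted within 1000 bp, 5000 bp and 20000 bp, SNPC-1.1 used 76.9%, 70.3% and 75.9% of such genes, SNPC-1.2 used 15.4%, 18.9% and 33.3%, and SNPC-4 at 72 h used 84.6%, 78.4% and 83.3%. Unknown depth limits every statement of absence, and the causes of these changes were otherwise not tested.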
